A study of Mus musculus with 18 samples.

Results

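The transcripts described here are 7 genes of the early growth response and NR4A families and their cofactor: Egr1, Egr2 and Egr3, Nr4a1, Nr4a2 and Nr4a3, and Nab2. They were taken as every probe whose RefSeq accession maps to these symbols, which gave 1 probe for each gene and 7 genes out of 17061 named genes that passed the filter on dim probes. All 7 passed it. The probes of 6 of them were well above background on all 18 arrays, and Nr4a3 was well above background on 17, the exception being replicate 2 of LAT KO at 1 week.

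RNA came from naive CD4+ T cells, sorted as CD44low from spleens of C57BL/6 mice, and each of the 18 samples was hybridised to a single-colour Agilent array. Tamoxifen had been given for 1 or 4 weeks to every group, so no group was free of it. By the sample titles, WT mice were ERCre- LAT f/-, LAT KO mice were ERCre+ LAT f/- and Y136F mice were ERCre+ LAT f/m, where f is the allele that tamoxifen-activated Cre can delete. The series text instead lists Cre-positive animals for all genotypes. If the titles hold, the presence of Cre and the loss or mutation of Lat cannot be told apart. The promoter that drives Cre is not given in the sources used here. Y136F replaces the LAT tyrosine that recruits phospholipase C-gamma 1. Each group had 3 arrays; the labels name no shared litter or day, and p-values measure the spread between these arrays.

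The 18 arrays lay on 5 slides, with 84.2% to 97.9% of spots well above background. Values are scaled log2 signals: 0 is the 75th percentile of all spots on the array, and a difference of 1 is a 2-fold change. The Lat probe read 2.34 to 3.16 in LAT KO and 3.29 to 3.85 in WT at 4 weeks, without overlap, as for 13.8% of all genes. It read 2.32 and 2.73 in LAT KO against 2.75 to 3.47 in WT at 1 week, where the spot of LAT KO replicate 2 was marked as an outlier and dropped. Lat did not pass in LAT KO against WT at either time or over both (58.4% of WT, limma adjusted p = 0.0905). In Y136F Lat read 4.17 to 4.32 at 1 week and 3.86 to 4.43 at 4 weeks, above all WT arrays of the same time. Those differences from WT did not pass either (limma adjusted p = 0.167 and 0.319). Whether the probe falls inside the deleted segment is not stated. The labels give every Y136F mouse as female, all WT and LAT KO mice of 4 weeks were male, and the WT and LAT KO groups of 1 week each held 2 females and 1 male. Sex-linked genes went against the label on 2 arrays. LAT KO replicate 1 of 1 week, labelled female, had Xist at -9.3, and LAT KO replicate 2 of 4 weeks, labelled male, had Xist at 0.21. The called differences that involve LAT KO are also given without both. If the 2 arrays had been exchanged, the LAT KO mean over both times would be the same. Xist was also raised on replicate 3 of WT (-3.98) and replicate 3 of LAT KO (-3.74) of 1 week, both labelled male. On the WT arrays of 4 weeks, all labelled male, Xist read -7.99 to -7.03. The Y-linked genes of these replicates 3 read near those of the same WT arrays. The cause was not tested. LAT KO replicate 3 of 1 week had 7888 spots marked as outliers, against at most 952 on the others. T cell identity markers were high on all arrays (mean scaled log2 signal of 7 genes, 2.9 to 3.54), as the sort requires.

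EGR proteins are zinc finger transcription factors, and NR4A proteins are orphan nuclear receptors that bind DNA without a known ligand. Both families are immediate early genes: in T cells, signals from the T cell receptor (TCR) through LAT, by way of Ras and ERK and by way of calcium, switch them on quickly and briefly, so their level in resting cells serves as a readout of recent or tonic receptor signalling. EGR2, EGR3 and the NR4A factors are known for restraining T cell responses. NAB2 binds EGR proteins and modulates their activity, and Nab2 is itself a known EGR target.

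The stretches before the annotated starts are shown because they hold the elements through which ERK, cAMP and calcium signals are known to act on immediate early genes. RefSeq promoters (build GRCm38.p6) were at hand for 5 of the 7 genes; for Egr1 and Egr3 none was used. The 250 bases before the start were searched on both strands for the CArG box of serum response factor, the MEF2 site, the CRE core TGACG (which also lies within the full CRE TGACGTCA), the EGR site GCGTGGGCG, the NR4A site AAAGGTCA and the AP-1 site TGANTCA. Capitals mark the matches, and the sequences run 5′ to 3′. For Egr2 the reference lists 5 starts and the window before the first of a cluster of them is shown, chr10:67537619-67537868 (+ strand). The window of Nr4a1 is chr15:101266596-101266845 (+ strand), that of Nr4a2 chr2:57124004-57124253 (- strand) and that of Nr4a3 chr4:48045055-48045304 (+ strand).
Egr2: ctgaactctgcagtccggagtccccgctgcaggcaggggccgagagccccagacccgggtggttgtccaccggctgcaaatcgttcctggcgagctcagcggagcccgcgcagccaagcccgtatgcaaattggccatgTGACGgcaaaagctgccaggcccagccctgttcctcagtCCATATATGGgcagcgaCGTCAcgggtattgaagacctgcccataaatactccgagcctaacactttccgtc
Nr4a1: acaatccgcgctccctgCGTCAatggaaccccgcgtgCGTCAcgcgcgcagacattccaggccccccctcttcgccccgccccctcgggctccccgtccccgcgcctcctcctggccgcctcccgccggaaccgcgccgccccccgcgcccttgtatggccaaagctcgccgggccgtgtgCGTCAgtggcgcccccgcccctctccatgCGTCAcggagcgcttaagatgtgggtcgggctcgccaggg
Nr4a2: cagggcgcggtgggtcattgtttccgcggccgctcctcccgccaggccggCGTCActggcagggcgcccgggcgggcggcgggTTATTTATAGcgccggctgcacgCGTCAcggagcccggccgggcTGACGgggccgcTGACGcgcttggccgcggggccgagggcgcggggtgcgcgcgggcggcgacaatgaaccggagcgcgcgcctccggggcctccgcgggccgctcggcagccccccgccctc
Nr4a3: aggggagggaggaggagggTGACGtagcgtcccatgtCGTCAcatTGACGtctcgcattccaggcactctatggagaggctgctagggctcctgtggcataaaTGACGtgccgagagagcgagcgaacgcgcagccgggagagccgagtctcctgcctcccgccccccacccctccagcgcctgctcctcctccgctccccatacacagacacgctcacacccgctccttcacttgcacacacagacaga
Egr2 held a CArG box, CCATATATGG, at -72 to -63 and 2 CRE cores. Of 32536 promoter windows of the same length 1.48% held a CArG box. Nr4a1, Nr4a2 and Nr4a3 each held 4 CRE cores, a number reached by 45 windows, or 0.138%; 17.9% held at least 1. Nr4a2 also held a MEF2 site, TTATTTATAG, at -167 to -158, found in 2.89% of windows. None of the 7 motif patterns occurred in the window of Nab2, chr10:127666704-127666953 (- strand), and none of the members' windows held TGACGTCA (1.56% of windows), GCGTGGGCG (0.541%), AAAGGTCA (1.35%) or TGANTCA (6.73%). These are matches of letters, not measured sites.

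**Figure D1:**
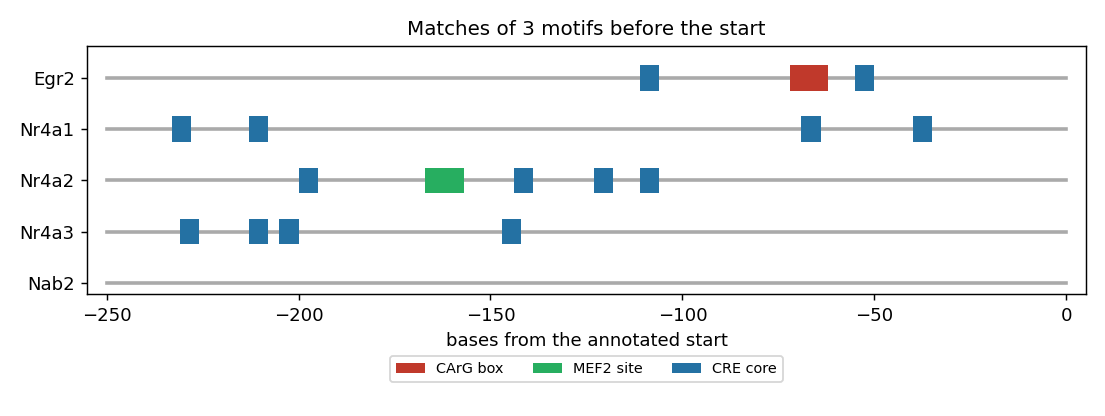
Positions of 3 motifs in the 250 bases before the annotated start of 5 genes, in bases from the start; coloured blocks are matches on either strand. The 3 NR4A genes each have 4 CRE cores, Egr2 has 2 and a CArG box, and Nab2 has none.

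Averaged over both times, LAT KO cells had less of 6 of the 7 transcripts than WT cells, the exception being Nr4a2. In Y136F cells Egr3 and Nr4a1 were lower at 1 week, and from 1 to 4 weeks Egr1, Egr2, Egr3, Nr4a1 and Nr4a2 rose. At 4 weeks Egr1, Egr2, Egr3 and Nr4a1 were lower in LAT KO than in Y136F cells. Differences were tested with limma over all genes, with Benjamini-Hochberg adjustment and a threshold of 0.05. In LAT KO against WT at 1 week 4 members were called lower, when 0.019% of all genes were called, all of them lower. At 4 weeks 4 members were called lower, when 0.0412% of all genes were called lower and 0.057% higher, 0.0982% in all. For the mean of both times 6 were called lower, when 0.127% of all genes were called lower and 0.187% higher, 0.314% in all. In Y136F against WT at 1 week 2 were called lower, when 0.0127% of all genes were called lower and 0.00317% higher, 0.0158% in all. At 4 weeks 0 members were called by limma, although 3.39% of all genes were, 0.916% lower and 2.48% higher. Nr4a1, Nr4a2, Nr4a3 and Nab2 each had an interval that left out 0, when 5131 of 31552 genes had an unadjusted p under 0.05. Between LAT KO and Y136F 0 members and 0 genes were called by limma at 1 week, with 1802 genes at an unadjusted p under 0.05. At 4 weeks 4 members were lower in LAT KO, when 2.32% of all genes were lower and 1.04% higher, 3.37% in all. These groups differ in labelled sex, and with sex as a term 167 genes were called in place of 1063. WT and Y136F of 4 weeks also differ in labelled sex, and there 85 genes were called in place of 1070. The sex term used the labels, also for the LAT KO arrays whose sex-linked genes go against them. The plot of differences with their intervals shows these contrasts side by side. The comparisons with WT of a given time share the same WT arrays, and since all RNA was measured in bulk, fewer cells that express a gene and less RNA per cell cannot be told apart.

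With both sex-mismatched LAT KO arrays left out, a setting added after the data were seen, the LAT KO differences from WT at 1 week were -2.72 for Egr1 (limma adjusted p = 2.47e-05), -2.77 for Egr2 (2.47e-05) and -1.95 for Nr4a1 (5.15e-05), and at 4 weeks -1.59 (0.00644), -2.09 (0.000622) and -1.66 (0.00046). Egr3 kept its size and did not pass (-1.48, adjusted p = 0.0559, and -1.39, 0.0579). Over both times the 6 calls held, with Nr4a3 at -1.76 (limma adjusted p = 0.0122) and Nab2 at -1.23 (0.0297), and the 4 calls against Y136F at 4 weeks held, with Egr1 at -2.03 (6.58e-05), Egr2 at -1.93 (0.000138), Nr4a1 at -1.17 (0.000829) and Egr3 at -1.06 (0.0282). When the fit held only the WT and LAT KO arrays of 1 week, the differences were the same and 0 members passed (limma adjusted p from 0.0721 for Nr4a1 upward). Among labelled females of 1 week 1 member passed, Nr4a1 (-2.05, limma adjusted p = 0.0275). That set includes LAT KO replicate 1, whose sex-linked genes go against its label. The 1 slide that held LAT KO and WT of 1 week had 1 array of each, replicate 3 of both groups. There the differences were -2.82 for Egr1, -2.67 for Egr2, -1.48 for Egr3 and -1.95 for Nr4a1. That LAT KO array is the one with 7888 outlier spots.

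**Figure D2:**
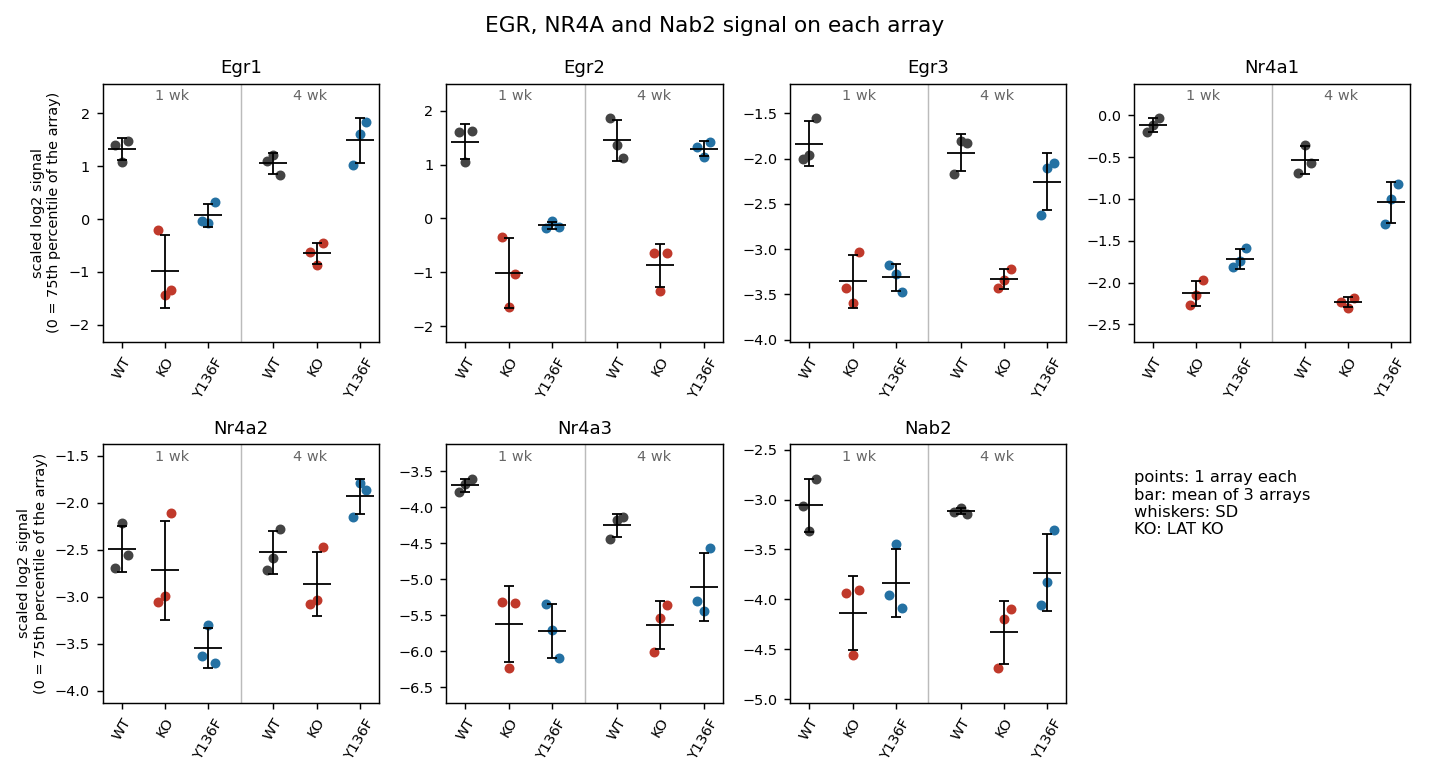
Scaled log2 signal (vertical axis, 0 at the 75th percentile of the array) of each of the 7 genes on each array, by genotype and time; bars are means of 3 arrays and whiskers SD. Egr1, Egr2, Egr3 and Nr4a1 are low in both mutants at 1 week, whereas at 4 weeks Y136F lies near WT for the EGR genes and between LAT KO and WT for Nr4a1.

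Egr1, the broadly inducible member of its family, read 1.41, 1.09 and 1.48 on the WT arrays of 1 week, -0.2, -1.43 and -1.34 in LAT KO and -0.03, -0.07 and 0.32 in Y136F (replicates 1 to 3). The 4-week arrays read 1.1, 1.22 and 0.84 in WT, -0.62, -0.87 and -0.46 in LAT KO and 1.02, 1.62 and 1.84 in Y136F. All LAT KO arrays lay below all WT arrays at both times, and Y136F lay between them at 1 week and overlapped WT at 4 weeks. Of all genes, 2.75% lay fully below WT in LAT KO at 1 week and 13.8% at 4 weeks. In Y136F the shares were 6.19% at 1 week and 16.7% at 4 weeks. The 2 WT groups and Y136F of 4 weeks overlapped each other at the top of the order, and the 2 LAT KO groups overlapped at the bottom. In LAT KO, Egr1 was at 20% of its WT level at 1 week (log2 difference -2.32, SE 0.27, limma adjusted p = 0.000861) and at 30.7% at 4 weeks (-1.7, SE 0.27; 0.0177). In Y136F it was at 41.9% of WT at 1 week, which did not pass (-1.25, SE 0.27, adjusted p = 0.164), and differed by 0.44 at 4 weeks (95% interval -0.13 to 1.01). LAT KO replicate 1 of 1 week, an array that goes against its sex label, had the highest Egr1 of its group.

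Egr2, the family member most tied to anergy and peripheral tolerance, was measured by 10 spots per array, whose SD within an array was at most 0.14. It read 1.61, 1.05 and 1.62 in WT, -0.35, -1.64 and -1.04 in LAT KO and -0.18, -0.05 and -0.16 in Y136F at 1 week. On the arrays of 4 weeks it read 1.87, 1.36 and 1.13 in WT, -0.64, -1.34 and -0.64 in LAT KO and 1.32, 1.15 and 1.42 in Y136F. Y136F of 4 weeks lay within the WT range, and Y136F of 1 week lay below both WT groups and above both LAT KO groups on every array. At 1 week 6.19% of all genes lay fully below WT in Y136F, and LAT KO lay fully below Y136F for 5.73%. LAT KO lay fully below WT for 2.75% at 1 week and 13.8% at 4 weeks. Egr2 had the largest difference among the members in LAT KO at both times: it was at 18.4% of WT at 1 week (-2.44, SE 0.27, limma adjusted p = 0.000861) and at 20% at 4 weeks (-2.33, SE 0.27; 0.00103). In Y136F it was at 34% at 1 week (-1.56, SE 0.27, adjusted p = 0.0732) and at 89.5% at 4 weeks (-0.16, 95% interval -0.74 to 0.42).

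Egr3, which acts with Egr2 in T cells, read -2, -1.96 and -1.55 in WT, -3.43, -3.6 and -3.03 in LAT KO and -3.18, -3.28 and -3.47 in Y136F at 1 week. Its 4-week values were -2.17, -1.81 and -1.83 in WT, -3.43, -3.34 and -3.22 in LAT KO and -2.62, -2.1 and -2.05 in Y136F. Unlike Egr1 and Egr2, the Egr3 values of Y136F at 1 week overlapped those of LAT KO. No array of either mutant reached the lowest WT array of that time, as for 2.75% of all genes in LAT KO and 6.19% in Y136F. At 4 weeks Y136F overlapped WT. Egr3 was at 34.9% of WT in LAT KO (-1.52, SE 0.21, limma adjusted p = 0.00984) and at 36% in Y136F (-1.47, SE 0.21; 0.0226) at 1 week. At 4 weeks it was at 38.1% in LAT KO (-1.39, SE 0.21, limma adjusted p = 0.0169) and at 80% in Y136F (-0.32, 95% interval -0.77 to 0.13). The Egr3 call in LAT KO at 1 week was lost without WT replicate 3 (adjusted p = 0.114) or LAT KO replicate 2 (0.127), over 18 arrays left out in turn, and with slide in the model (0.0554). The call in Y136F at 1 week was lost without WT replicate 2 (0.063) or 3 (0.151) or without Y136F replicate 1 (0.108), 2 (0.132) or 3 (0.106), and under quantile normalization (0.0802), in the series matrix (0.078) and with only the groups compared (0.14). At 4 weeks the calls of Egr1 and Egr3 in LAT KO were both lost without WT replicate 2 (0.106 and 0.0922) or 3 (0.0792 and 0.118) or LAT KO replicate 1 (0.074 for both) or 2 (0.168 and 0.155), which left 2 members called.

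Nab2, the corepressor gene, read -3.06, -3.32 and -2.79 in WT, -3.94, -4.56 and -3.91 in LAT KO and -3.96, -3.45 and -4.09 in Y136F at 1 week. After 4 weeks it read -3.12, -3.08 and -3.14 in WT, -4.69, -4.2 and -4.1 in LAT KO and -4.06, -3.83 and -3.31 in Y136F. Every mutant array was below every WT array of its time, and LAT KO and Y136F overlapped at 1 week but not at 4 weeks, where LAT KO was lower. Among all genes, 2.75% lay fully below WT in LAT KO at 1 week and 13.8% at 4 weeks. The shares in Y136F were 6.19% and 16.7%, and LAT KO lay fully below Y136F at 4 weeks for 9.61%. Over both times Nab2 fell to 45.1% of WT in LAT KO (-1.15, SE 0.2, limma adjusted p = 0.0116). It did not pass in LAT KO at 1 week (-1.08, adjusted p = 0.613) or 4 weeks (-1.22, 0.128), nor in Y136F (-0.78, 0.599, and -0.62, 0.274). Unlike the EGR genes, Nab2 in Y136F had nearly the same level at 4 weeks as at 1 week, with a difference of 0.1 (95% interval -0.48 to 0.68).

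Nr4a1, which encodes Nur77 and is widely used as a reporter of TCR signal strength, had the smallest standard error of the 7. At 1 week it read -0.2, -0.12 and -0.03 in WT, -2.27, -2.15 and -1.97 in LAT KO and -1.82, -1.74 and -1.59 in Y136F. The values of 4 weeks were -0.69, -0.36 and -0.57 in WT, -2.23, -2.3 and -2.18 in LAT KO and -1.3, -1 and -0.82 in Y136F. The order WT, Y136F, LAT KO held at each time with no overlap between genotypes, and only the 2 LAT KO groups overlapped in the order of all 6. LAT KO lay fully below Y136F for 5.73% of all genes at 1 week and 9.61% at 4 weeks. Y136F lay fully below WT for 6.19% at 1 week and 16.7% at 4 weeks. Nr4a1 had the smallest p of all genes in LAT KO against WT at 1 week (24.7% of WT; -2.02, SE 0.15, limma adjusted p = 5.96e-06), at 4 weeks (30.9%; -1.7, SE 0.15; 8.86e-05) and in Y136F against WT at 1 week (33%; -1.6, SE 0.15; 0.000217). In Y136F at 4 weeks it was at 71% of WT, which did not pass (-0.49, SE 0.15, adjusted p = 0.101). The WT arrays of 4 weeks were themselves below those of 1 week (-0.43, SE 0.15, limma adjusted p = 0.193), while the median gene differed by 0.21 in the other direction. Between the WT groups 10.7% of all genes were lower at 4 weeks without overlap.

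Nr4a3, the third NR4A gene and another early target of TCR signals, read -3.79, -3.68 and -3.61 in WT, -5.32, -6.24 and -5.33 in LAT KO and -5.35, -5.71 and -6.1 in Y136F at 1 week. At 4 weeks it read -4.44, -4.18 and -4.14 in WT, -6.01, -5.54 and -5.36 in LAT KO and -5.31, -5.44 and -4.57 in Y136F. All mutant arrays were below all WT arrays of their time. Among all genes this held for 2.75% in LAT KO at 1 week and 13.8% at 4 weeks, and for 6.19% and 16.7% in Y136F. For Nr4a3 the 4 mutant groups overlapped along their order. Its standard error was the largest of the 7. Over both times it fell to 31.7% of WT in LAT KO (-1.66, SE 0.25, limma adjusted p = 0.00464), a group with 1 array not well above background. The size depended on the background treatment: the difference was -0.75 under normexp and -0.88 in the series matrix, and passed in both (limma adjusted p = 0.00217 and 0.0111). Its difference in Y136F at 1 week did not pass (24.6% of WT; -2.02, SE 0.35, adjusted p = 0.0672), nor did those in LAT KO at 1 week (-1.94, 0.112) or 4 weeks (-1.38, 0.18) or in Y136F at 4 weeks (-0.85, 0.232). With normexp background correction the 1-week differences were -0.87 in LAT KO and -0.88 in Y136F and passed (limma adjusted p = 0.048 and 0.045).

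Nr4a2 differed from the other 6. At 1 week it read -2.69, -2.22 and -2.56 in WT, -3.06, -2.99 and -2.11 in LAT KO and -3.63, -3.3 and -3.71 in Y136F. For 4 weeks the values were -2.72, -2.59 and -2.28 in WT, -3.08, -3.04 and -2.47 in LAT KO and -2.15, -1.79 and -1.86 in Y136F. LAT KO overlapped WT at both times, with replicate 3 the high array each time, whereas Y136F lay below every WT and LAT KO array at 1 week and above every one at 4 weeks. Of all genes, 6.19% lay fully below WT in Y136F at 1 week and 9.35% fully above it at 4 weeks. In LAT KO over both times Nr4a2 was at 82.3% of WT (-0.28, 95% interval -0.67 to 0.1). In Y136F it was at 48.1% of WT at 1 week (-1.06, SE 0.26, limma adjusted p = 0.216) and at 151% at 4 weeks (0.6, SE 0.26; 0.261), and neither passed. Under quantile normalization the 4-week difference was 0.73 and passed (limma adjusted p = 0.0303).

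**Figure D3:**
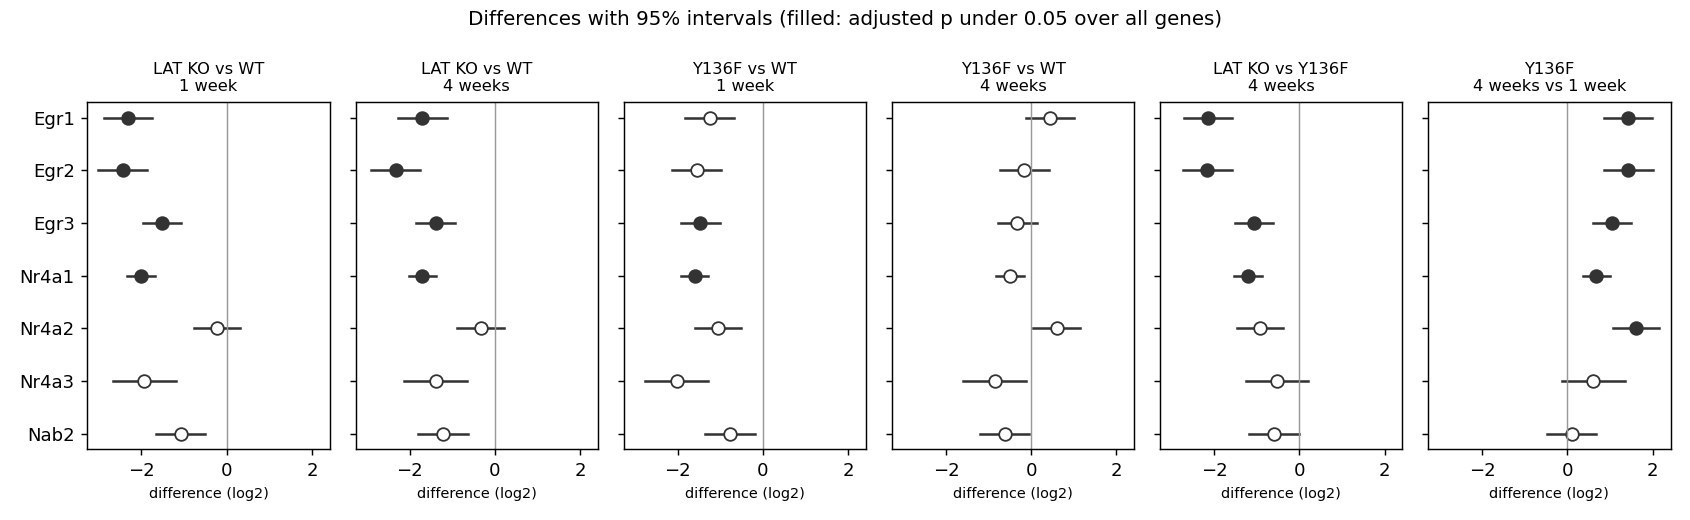
Log2 differences (horizontal axis) with 95% intervals for the 7 genes in 6 comparisons from limma; filled points passed the threshold over all genes. In LAT KO against WT every gene but Nr4a2 lies well below 0 at both times, and in Y136F all 1-week differences are negative, whereas at 4 weeks Egr1 and Nr4a2 are above 0.

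From 1 to 4 weeks 5 of the 7 members rose in Y136F cells, when 4.21% of all genes rose and 3.45% fell, 7.66% in all. They were Nr4a2 to 306% of its 1-week level (1.61, SE 0.26, limma adjusted p = 0.00092), Egr2 to 268% (1.42, SE 0.27; 0.00366), Egr1 to 267% (1.42, SE 0.27; 0.00331), Egr3 to 207% (1.05, SE 0.21; 0.00547) and Nr4a1 to 160% (0.68, SE 0.15; 0.0111). For these 5, all arrays of 4 weeks were above all of 1 week, as for 21.7% of all genes. In Y136F Nr4a3 differed by 0.61 (95% interval -0.12 to 1.35), and both Nr4a3 and Nab2 overlapped between times. In LAT KO no member separated between the times, when 0.466% of all genes fell and 1.72% rose without overlap. In WT 0 members and 0 genes were called by limma between times, with 6107 genes at an unadjusted p under 0.05. Nr4a1 (-0.43) and Nr4a3 (-0.56) were lower in WT at 4 weeks without overlap, as 10.7% of all genes were. The change of the LAT KO effect gave 0 limma calls among all genes, with 1614 at an unadjusted p under 0.05. The 7 changes ran from -0.14 to 0.62. The Nr4a1 call in Y136F over time was lost without Y136F replicate 1 of 1 week (adjusted p = 0.0595) or replicate 2 (0.0503) or 3 (0.0595) of 4 weeks. With slide in the model Nr4a1 (0.0593) and Egr2 (0.0792) did not pass, which left 3 members. The 1 slide that held both Y136F times had 1 array of each. There the differences were 1.7 for Egr1, 1.2 for Egr2, 1.17 for Egr3, 0.74 for Nr4a1 and 1.5 for Nr4a2.

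Taking out the change in WT, the shift of the Y136F effect from 1 to 4 weeks was positive for all 7 genes, and 1 passed, Nr4a1 (1.11, SE 0.22, limma adjusted p = 0.0267), when 0.393% of all genes passed upward and 0.127% downward, 0.52% in all. The shift was 1.69 for Egr1 (SE 0.38, limma adjusted p = 0.0568), 1.65 for Nr4a2 (0.37; 0.0533), 1.4 for Egr2 (0.39; 0.127), 1.15 for Egr3 (0.3; 0.107), 1.17 for Nr4a3 (0.49; 0.457) and 0.16 for Nab2 (0.39; 1). The Nr4a1 call was lost under quantile normalization (1.02, adjusted p = 0.0603), in the series matrix (0.95, 0.0633) and with slide (1.11, 0.0531) or sex (1.23, 0.0526) as a term. Under quantile normalization and in the series matrix Nr4a2 passed in its place (1.57, adjusted p = 0.0103, and 1.36, 0.0198). The count also depended on single arrays. It was 0 without WT replicate 2 or 3 of 1 week, Y136F replicate 1 or 2 of 1 week, WT replicate 1 or 3 of 4 weeks, or Y136F replicate 2 or 3 of 4 weeks, with adjusted p for Nr4a1 between 0.0659 and 0.0943. It was 2 without Y136F replicate 1 of 4 weeks, 3 without LAT KO replicate 2 or 3 of 1 week and 4 (Egr1, Egr2, Nr4a1 and Nr4a2) without LAT KO replicate 1 of 1 week, an array that takes no direct part in the contrast but adds to the shared estimate of spread.

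Set against Y136F of the same time, LAT KO cells of 4 weeks had less Egr2 (22.3% of the Y136F level; -2.17, SE 0.27, limma adjusted p = 0.000237), Egr1 (22.7%; -2.14, SE 0.27; 0.000237), Nr4a1 (43.5%; -1.2, SE 0.15; 0.000238) and Egr3 (47.6%; -1.07, SE 0.21; 0.00721). Nr4a2 was at 52.6% and did not pass (-0.93, SE 0.26, adjusted p = 0.0606), with all LAT KO arrays below all Y136F arrays, as for 9.61% of all genes. Its difference passed under normexp (-0.76, adjusted p = 0.0356), quantile normalization (-0.92, 0.00734), in the series matrix (-0.81, 0.0126) and with the replicate block (-0.93, 0.0424), and without LAT KO replicate 1 (0.0408) or 3 (0.021) of 1 week or LAT KO replicate 3 of 4 weeks (0.0427). It did not pass without both sex-mismatched arrays (-0.84, adjusted p = 0.201). Nab2 (66.2%; -0.6, adjusted p = 0.388) and Nr4a3 (69.3%; -0.53, 0.671) did not pass. At 1 week the largest LAT KO minus Y136F differences were those of Egr1 (-1.07, 95% interval -1.63 to -0.5), Egr2 (-0.88, -1.46 to -0.31) and, with the opposite sign, Nr4a2 (0.83, 0.28 to 1.37), each with an adjusted p of 0.857. Without both sex-mismatched arrays these were -1.46 (limma adjusted p = 0.0624), -1.21 (0.093) and 1 (0.271). At 4 weeks 2 slides held both genotypes, with 1 array of each. The differences on them were -2.3 and -1.64 for Egr1, -2.06 and -1.95 for Egr2 and -1.37 and -0.93 for Nr4a1.

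Markers of other T cell states moved with the rise in Y136F, as the plot of marker lists shows. In Y136F at 4 weeks the memory and effector list (11 genes) had a mean scaled log2 signal of 1.88 to 2.11 per array, against -0.31 to 0.03 in WT, and 7 of 11 genes rose, among them Gzma, a granzyme (6.64, SE 0.61, limma adjusted p = 1.04e-05), and Lgals3 (2.54, SE 0.23; 1.04e-05). Of 9 proliferation genes 7 rose, with Mki67 at 2.37 (SE 0.3, limma adjusted p = 0.000253), and the list mean, over 8 genes, was 0.01 to 0.15 against -1.94 to -1.71 in WT. Of 7 naive T cell genes 4 fell, with Ccr7, a lymph node homing receptor, at -1.36 (SE 0.16, limma adjusted p = 0.000111) and a list mean of 2.33 to 2.45 against 3.51 to 3.56. At 1 week limma called 0 genes of these 3 lists in Y136F against WT. The part of these shifts in the Egr and Nr4a values was not tested. At 4 weeks all WT mice were labelled male and all Y136F mice female, so sex and genotype cannot be told apart within that comparison. This holds for every call of Y136F against WT at 4 weeks given here and below.

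**Figure D4:**
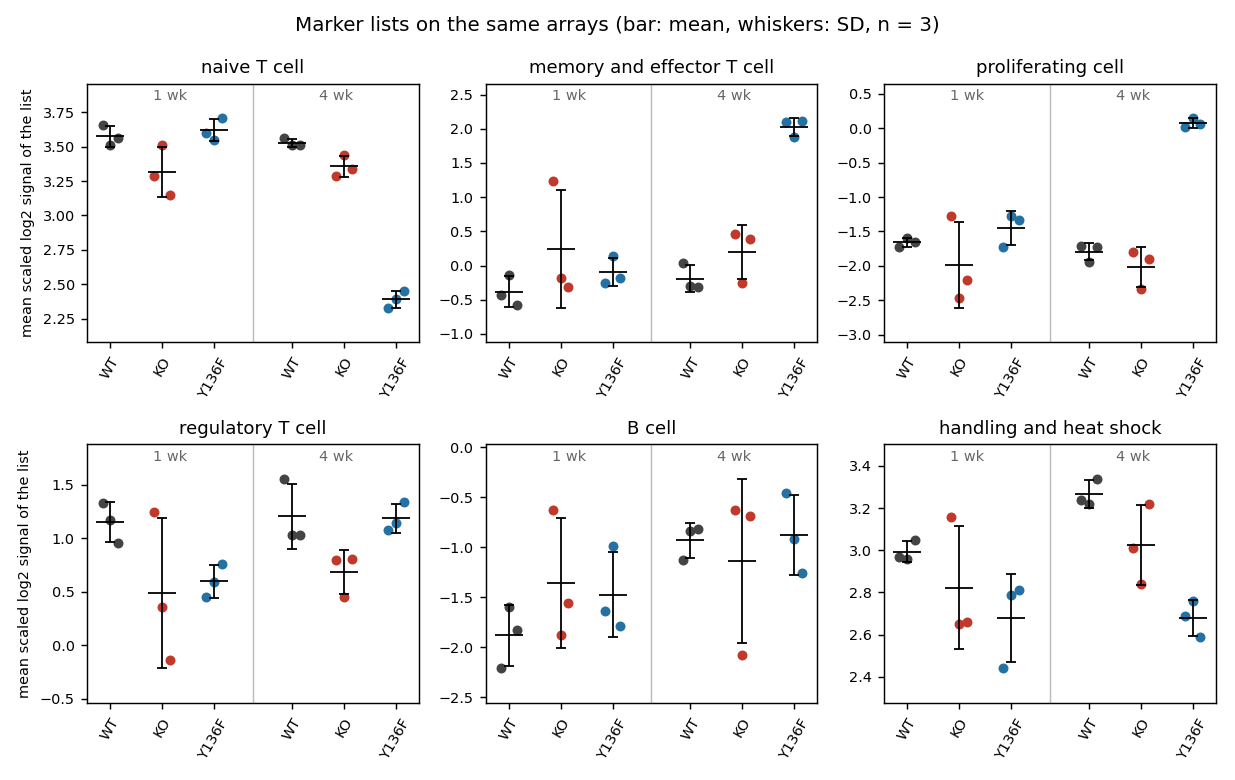
Mean scaled log2 signal of 6 marker lists on each array (vertical axis), by genotype and time; bars are means of 3 arrays and whiskers SD. Y136F of 4 weeks is set apart in the naive, memory and effector, and proliferation lists, and LAT KO replicate 1 of 1 week is the highest of its group in the memory and effector, regulatory T cell and B cell lists.

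Other markers that moved with the members were fewer. In LAT KO against WT over both times 2 of 8 regulatory T cell genes fell, Tnfrsf9 (-1.74, SE 0.26, limma adjusted p = 0.00464) and Gpr83 (-0.89, SE 0.15, limma adjusted p = 0.0119). The list mean, over 7 genes, was -0.14 to 1.25 in LAT KO against 0.96 to 1.33 in WT at 1 week and 0.45 to 0.81 against 1.03 to 1.56 at 4 weeks. In Y136F the list mean was 0.45 to 0.76 at 1 week, below all WT arrays, and 1.08 to 1.34 at 4 weeks, within the WT range. Of the 8 genes, limma called 0 in Y136F against WT at 1 week and 1 lower at 4 weeks. From 1 to 4 weeks 3 of the 8 rose in Y136F. Tnfrsf9 and Gpr83 also fell over both times without the sex-mismatched arrays (-1.93, limma adjusted p = 1.75e-05, and -1.01, 0.0122). LAT KO replicate 1 of 1 week, with the highest Egr1 and Egr2 of its group, also had the highest memory and effector (1.24), B cell (-0.63), proliferation (-1.28) and heat shock (3.16) means of its group. Of 8 B cell genes none passed in limma in any of the comparisons between groups. In Y136F at 4 weeks 3 of 5 plasma cell genes rose and 1, Irf4, fell, 1 of 9 myeloid and 1 of 5 NK cell genes rose, and limma called 0 of 6 erythroid genes. The heat shock and handling list was watched because immediate early genes respond to cell handling. It had 0 of 10 genes called by limma against WT in LAT KO at either time and in Y136F at 1 week, and 3 of 10 lower in Y136F at 4 weeks. Its mean, over 9 genes, was 2.44 to 2.81 in Y136F and 2.65 to 3.16 in LAT KO against 2.96 to 3.05 in WT at 1 week. At 4 weeks it was 2.59 to 2.76 in Y136F and 2.84 to 3.22 in LAT KO against 3.22 to 3.34 in WT. The part of any of these in the members' values was not tested.

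Of the close relatives, Egr4 and Nab1 were not called against WT in either mutant, and Nab1 was lower in LAT KO than in Y136F at 4 weeks (-0.77, SE 0.2, limma adjusted p = 0.0399, and -0.69, 0.0196 without both sex-mismatched arrays). Nab1, the paralogue of Nab2, differed by -0.14 (95% interval -0.44 to 0.16) in LAT KO over both times and by 0.7 in Y136F at 4 weeks (SE 0.2, limma adjusted p = 0.0658). Egr4 read between -5.74 and -4.28 in WT of 1 week, a wide spread, and in Y136F it rose from 1 to 4 weeks (1.68, SE 0.44, limma adjusted p = 0.0254). Its probe was well above background on 2 of the 3 Y136F arrays of 1 week, so the size of that rise is uncertain. In the list of other TCR-induced early response genes, 1 of 33 measured genes fell in LAT KO at 1 week, 1 at 4 weeks and 1 in Y136F at 1 week, in each case Irf4, a transcription factor whose level tracks TCR signal strength (24.7%, 23% and 33.3% of WT). Over both times 4 of 33 fell in LAT KO: Irf4 (-2.07, SE 0.17, limma adjusted p = 5.19e-06), Fos (-2.15, SE 0.31; 0.00421), the ERK phosphatase gene Dusp6 (-0.77, SE 0.12; 0.00639) and Cd83 (-1.08, SE 0.18; 0.00978). Without both sex-mismatched arrays the LAT KO counts were the same, with the same genes. The median difference of the 33 was -0.24, against -0.09 over all genes. Irf4 was also lower in Y136F at 4 weeks (48.2% of WT; -1.05, SE 0.23, limma adjusted p = 0.0156), where Egr1, Egr2 and Egr3 overlapped WT. In that comparison 2 of the 33 fell and 5 rose, with Bhlhe40 at 2.07 (SE 0.23, limma adjusted p = 9.84e-05) and Jun, an AP-1 subunit, at 1.9 (SE 0.34; 0.00369).

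Among 24 measured genes known to follow EGR2, EGR3 or the NR4A factors, limma called 0 in either mutant at 1 week or in LAT KO at 4 weeks. Over both times 3 fell in LAT KO: Tnfrsf9, the costimulatory receptor 4-1BB (30% of WT), Nrn1 (-0.99, SE 0.16, limma adjusted p = 0.0114) and Cd200 (-1.12, SE 0.21; 0.0191). Without both sex-mismatched arrays 2 fell over both times, as Nrn1 did not pass (-0.91, adjusted p = 0.0831), and Tnfrsf9 also fell at 1 week (-2.28, limma adjusted p = 0.000226) and 4 weeks (-1.59, 0.011). In Y136F at 4 weeks 4 of 24 rose: Fasl (1.25, SE 0.19, limma adjusted p = 0.00116), Pdcd1, which encodes PD-1 (2, SE 0.39; 0.00671), Cdkn1a (0.84, SE 0.19; 0.0179) and the anergy-associated ligase gene Rnf128 (1.3, SE 0.35; 0.0477). From 1 to 4 weeks in Y136F 9 of 24 rose and 2 fell. The list median was 0.13 in Y136F against WT at 4 weeks, where that of all genes was -0.19.

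Genes upstream of the members were mostly not called. Of 20 measured genes of the branch from LAT to ERK and the SRF and ELK factors, limma called 0 in LAT KO against WT at either time or over both, and 1, the adaptor gene Grap2, fell in Y136F at 4 weeks (-0.61, SE 0.15, limma adjusted p = 0.0299). Of 19 genes of the calcium, MEF2 and class IIa HDAC branch, limma called 0 in LAT KO, and Nfatc1 rose in Y136F at 4 weeks (0.89, SE 0.19, limma adjusted p = 0.0122). The median differences of the branches in LAT KO over both times were 0.04 and 0.09, against -0.09 over all genes.

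Likeness of pattern was measured as the root mean square difference between 2 genes over the 18 arrays, each centred on its own mean, among 13669 named genes. It is a description on the scaled log2 scale, and the arrays share all groups. Egr1 and Egr2 were each other's nearest gene (0.32, with own spreads of 1.01 and 1.11), and so were Egr3 and Nr4a1 (0.26, with own spreads of 0.7 and 0.8). The nearest gene of Nr4a3 was Egr3 (0.37). Outside the set, the nearest to Egr1 were Tnfrsf9 (0.35) and Cd200 (0.53), and to Egr2 Tnfrsf9 (0.37) and Fos (0.41). Wnt10a and Slc9b2 were nearest to Egr3 (0.29 and 0.33), and Wnt10a and Irf4 to Nr4a1 (0.27 and 0.35) and Nr4a3 (0.45 and 0.47). Nab2 had Ppic and Slc9b2 as its nearest (0.29 and 0.32), with an own spread of 0.54. Nr4a2 lay far from the other members on this measure, at 0.55 to 0.99 against an own spread of 0.55. Its nearest genes were Olfr357 (0.27) and Pimreg (0.28). The measure depends on the spread of both genes: Nab2 lay 0.36 from Egr3 but 0.71 from Egr1 and 0.74 from Egr2.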

How the data were processed

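Single-colour arrays of 18 samples in 6 groups were analysed. Per the file headers, the authors extracted spot intensity with Agilent Feature Extraction 10.5.1.1, whose processed signal is a background-corrected intensity. The submitters' processing notes name Feature Extraction 10.5 and limma. Log2 values of the authors' deposited series matrix, whose normalization is not given in the sources used here, served as an alternative. Each processed intensity was put on the log2 scale relative to its array's 75th percentile (control spots aside). Outlier spots were dropped, spots of a probe were averaged, and a gene was represented by its brightest probe. A gene needed a probe well above background on 3 or more arrays, a filter passed by 31622 genes and unnamed sequences. Accessions gave names to 17061 of these through a RefSeq table of assembly GRCm38.p6. Arrays have no read depth, and their number limits the precision.

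Tests used limma 3.58.1 in R 4.3.3 (two-sided, 1 mean per group over all 18 arrays, intensity trend, 12 residual degrees of freedom, prior degrees of freedom 5.43 at the median). P-values were adjusted by Benjamini-Hochberg within a comparison, across every gene tested, at 0.05. The code was tested on simulated data. The median gene differed by -0.17 in LAT KO and -0.19 in Y136F against WT at 4 weeks, and by -0.12 in Y136F at 1 week. Members and gene lists (6 pathway lists, 12 marker lists) were chosen with earlier results of these data known. Named genes are the members, Egr4, Nab1, Lat and Irf4, called genes of a list (at most 4 per list and comparison with WT, by smallest p), and the 2 genes nearest to each member in pattern. Xist is named for the check of labels.

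Alternatives were normexp background correction (offset 50), quantile normalization, the series matrix, no filter, every probe, outlier spots kept, slide, sex or replicate number as a term, only the groups compared, no intensity trend, labelled females only, and each array left out. The sex term and the set of females used the labels, also for the arrays whose sex-linked genes oppose them. Leaving out both arrays whose sex-linked genes oppose their label was added after the data were seen.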

Additional observations from a re-analysis of the deposited data

Results flagged for a closer look

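The Nr4a1 difference between Y136F and WT was smaller at 4 weeks than at 1 week, and the test of this change passed: 1.11 on the log2 scale (SE 0.22; limma adjusted p = 0.0267). It did not pass under quantile normalization (0.0603), in the series matrix (0.0633), or with slide (0.0531) or sex (0.0526) as a term, nor without any 1 of 8 arrays. All 3 Y136F arrays were below the WT mean at both times. From 1 to 4 weeks Nr4a1 differed by 0.68 in Y136F (SE 0.15) and by -0.43 in WT (SE 0.15), so both genotypes entered the change.

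For Nr4a2 every Y136F array lay below the WT mean at 1 week, by -1.22 to -0.8, and above it at 4 weeks. The change between the times was 1.65 (SE 0.37), and its test gave a limma adjusted p of 0.0533, which did not pass.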

How the results depend on the processing

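Over 13 alternative settings and 18 fits that each left out 1 array, the 6 calls of LAT KO against WT over both times held in each fit that could be made but 1: Nab2 did not pass in the series matrix values (-0.84, limma adjusted p = 0.0564). The number of members called changed as follows. In LAT KO against WT at 1 week it was 0 with only the groups compared and 1 in labelled females (main 4; 3 to 4 with 1 array left out), and at 4 weeks 2 to 4 with 1 array left out. In Y136F against WT at 1 week (main 2) it was 1 under quantile normalization and in the series matrix, 0 in labelled females, 4 with both sex-mismatched arrays left out and 1 to 5 with 1 array left out; at 4 weeks (main 0) it was 1 under quantile normalization. For the change of the Y136F effect (main 1) it was 3 under normexp, 2 with every probe, 0 with slide or sex as a term, 2 with the replicate block, 4 with only the groups compared, 4 with both sex-mismatched arrays left out and 0 to 4 with 1 array left out. For Y136F over time (main 5) it was 3 with slide and 4 to 5 with 1 array left out, and for LAT KO against Y136F at 4 weeks 4 to 5. With 1 array left out it was 6 throughout for LAT KO against WT over both times, and 0 for Y136F against WT at 4 weeks, LAT KO against Y136F at 1 week, the change of the LAT KO effect and WT over time.

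With both sex-mismatched LAT KO arrays left out, Egr3 in LAT KO did not pass at 1 week (-1.48, limma adjusted p = 0.0559) or 4 weeks (-1.39, 0.0579). Without an intensity trend Egr1 in LAT KO at 4 weeks did not pass (0.0703). With slide Egr3 in LAT KO at 1 week did not pass (0.0554), and with only the groups compared Egr3 in Y136F at 1 week did not pass (0.14) while Egr2 did (0.0216). With sex as a term 85 genes in place of 1070 were called in Y136F against WT at 4 weeks and 167 in place of 1063 in LAT KO against Y136F at 4 weeks. Deviations of same-numbered arrays from their group means had r of -0.45 to 0.52, over 0.1 in 6 of 18 pairs. The highest were those of WT and LAT KO at 1 week, 0.52 for replicate 1 and 0.46 for replicate 3. The labels pair no samples, and deviations from means of 3 arrays cannot decide whether the replicate numbers do. With the replicate block Egr2 passed in Y136F at 1 week (-1.56, 0.0195) and Nr4a2 in LAT KO against Y136F at 4 weeks (-0.93, 0.0424).

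Differences that changed sign were small and not called. Nr4a3 between LAT KO and Y136F at 1 week was -0.64 under quantile normalization, -0.27 in the series matrix, -0.05 with slide, -0.01 with sex, -0.06 in labelled females and -0.06 without both sex-mismatched arrays. The change of the LAT KO effect was 0.02 (normexp), 0.26 (quantile) and 0.3 (series matrix) for Nab2 and 0.13 (quantile) and 0.15 (series matrix) for Nr4a2. Over time in Y136F, Nr4a3 was -0.02 (quantile) and Nab2 -0.26 (quantile) and -0.11 (series matrix). Over time in WT, Egr2 was -0.11 with slide and -0.06 with sex, and Egr3 in Y136F at 4 weeks was 0.14 with sex. With 1 array left out the sign also turned in 13 uncalled results. Over time in WT the range was -0.18 to 0.19 for Egr2, -0.18 to 0.04 for Egr3, -0.17 to 0.1 for Nr4a2 and -0.19 to 0.08 for Nab2. For the LAT KO effect's change it was -0.2 to 0.44 for Egr2, -0.02 to 0.29 for Egr3, -0.3 to 0.2 for Nr4a2 and -0.35 to 0.04 for Nab2. Between LAT KO and Y136F at 1 week it was -0.21 to 0.08 for Egr3 and -0.1 to 0.39 for Nr4a3. For Egr2 in Y136F at 4 weeks it was -0.32 to 0.05, and for Nab2 -0.06 to 0.35 in the change of the Y136F effect and -0.11 to 0.29 over time in Y136F. The cause of these changes was not tested. Of all member differences in the alternatives 2199 kept direction and call, 49 lost the call, 41 gained it and 42 changed sign. Dim signal limits Nr4a3 and Egr4, each not well above background on 1 array.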
